A study of Rattus norvegicus with 20 samples.

Results

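A rosiglitazone group and an obese group of male ZDF (Zucker diabetic fatty) rats were compared by gene expression in their retroperitoneal tissue. The comparison took the 10 arrays whose titles name these groups, 5 of each, out of 20 arrays in the series, and every array feature with exactly 1 gene symbol, which gave 14824 of 36685 features and 14557 genes. The obese rats were on a stock diet for 6 weeks, and the lean control rats of the series were fed a standard chow. All 4 groups, the resveratrol group included, are labelled Zucker, male and ZDF, with rats housed singly and food and water freely available. The dose, route and duration of rosiglitazone, the diet and the obesity of the treated rats, and the age of the animals are not stated in the labels, so "rosiglitazone minus obese" is read as a difference between 2 labelled groups. Each array is labelled a biological replicate, hybridised from 100 ng of total RNA. Tissue was taken whole, so in every result below a smaller share of cells of a type and less RNA per cell cannot be told apart.

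Rosiglitazone is a thiazolidinedione that binds the nuclear receptor PPARG, the transcription factor that drives adipocyte formation and, with its partner RXR, turns on genes of fatty acid uptake, storage and oxidation. White adipocytes store triglyceride in a single droplet and hold few mitochondria. Brown and beige adipocytes hold many, burn fatty acids through beta-oxidation and the respiratory chain, and release the energy as heat through the uncoupling protein Ucp1. Obese ZDF rats carry a defective leptin receptor and become diabetic. No feature with exactly 1 symbol named Pparg, so the drug's receptor was not analysed here.

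Values are the log2 levels deposited by the authors, and all differences below are rosiglitazone minus obese in log2 units unless another group is named. Correlations between arrays lay between 0.895 and 0.987, and the median standard error of a difference was 0.17. Some arrays stood apart. Obese array 2 scored 3.37 for urothelial markers and 2.75 for simple epithelial markers (a score is the mean deviation of a list's genes from their means over all 20 arrays), against -0.55 to 0.028 and -0.34 to -0.17 on the other obese arrays. Rosiglitazone array 1 scored 3.39 for erythroid markers, and rosiglitazone array 2 stood apart in many genes described below. Resveratrol array 1 scored 4.75 for skeletal muscle markers, against -0.47 to -0.12 on the other resveratrol arrays, and entered the comparison with obese arrays only through the pooled spread. The 11 measured adipocyte markers lay at a mean level of 9.34 to 9.69 on rosiglitazone arrays and 8.89 to 9.64 on obese arrays, against a median gene level of 3.02, so the tissue carried the transcripts of fat, and none of the 11 passed the threshold.

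Of 14557 genes, 1436 passed the threshold of a limma adjusted p under 0.05 (9.86% of genes), 1047 that rose (7.19%) and 389 that fell (2.67%). The rise was at least 2-fold for 297 genes and at least 4-fold for 36, and the fall was at least 2-fold for 84 and at least 4-fold for 6. Over all genes the median difference was 0.0084, and every rosiglitazone array lay above every obese array in 6.14% of genes and below in 2.19%. The balance of rises and falls depended on the scaling of the arrays. Of the calls, 72.9% were rises with the values as deposited and 52.5% after the values were quantile normalised again, which gave 714 genes higher and 645 lower. Without obese array 2, rosiglitazone array 2 and resveratrol array 1, 840 genes rose and 375 fell, and without rosiglitazone array 1 alone 250 fell.

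**Figure D1:**
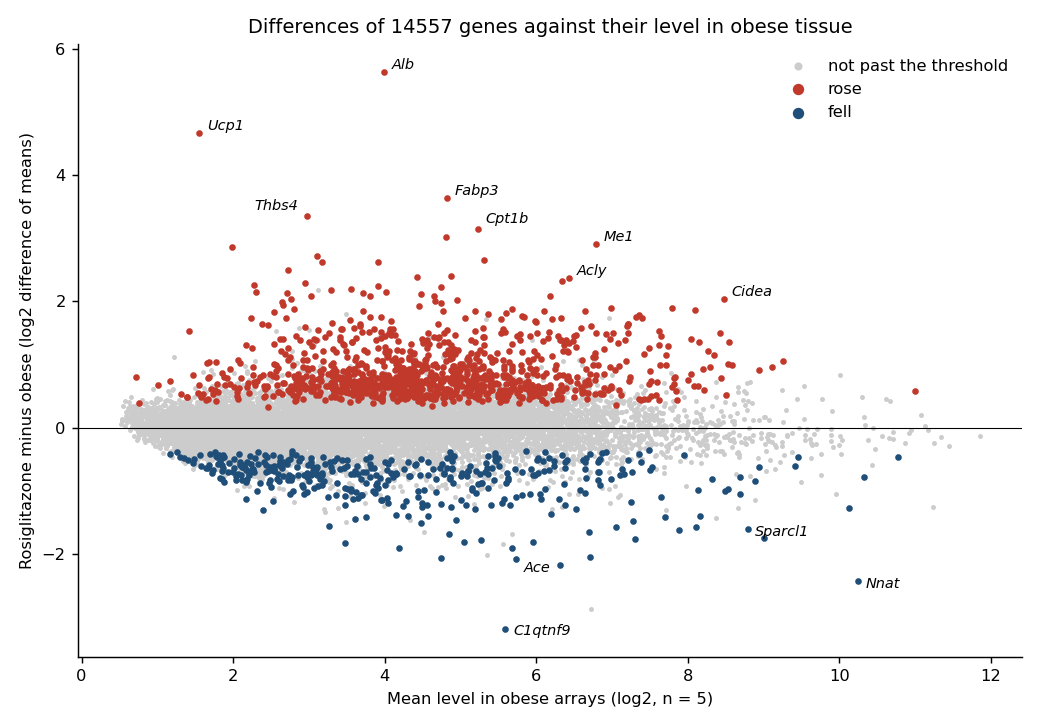
Each point is 1 of 14557 genes, with the mean log2 level on the 5 obese arrays on the horizontal axis and the log2 difference rosiglitazone minus obese on the vertical axis. Red points are the 1047 genes that rose and blue points the 389 that fell. Alb and Ucp1 lie highest, and C1qtnf9 and Nnat lie lowest among the called genes.

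The largest rise was that of Alb, which encodes serum albumin, the main plasma protein and a product of the liver. Its log2 level was 9.85, 9.44, 9.61, 10.25 and 9.0 on rosiglitazone arrays 1 to 5 and 4.54, 3.4, 4.53, 4.46 and 3.04 on obese arrays 1 to 5. The groups lay far apart, and Alb rose by 5.63 (SE 0.69, adjusted p = 3.3e-05), or 49.7-fold. The lean control arrays had it at 5.19, 8.16, 3.91, 8.73 and 8.8, low on arrays 1 and 3 and high on the other 3, and the resveratrol arrays at 3.96 to 5.52. Of 14 measured hepatocyte markers Alb was the only member past the threshold, and the other 13 differed by -0.65 to 0.29, with a median level of 1.77 in the rosiglitazone group and 1.75 in the obese group.

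Ucp1 came next. It lay at 5.83, 10.52, 4.82, 4.73 and 5.18 on rosiglitazone arrays 1 to 5 and at 1.22, 1.45, 1.41, 2.25 and 1.43 on obese arrays 1 to 5. Every rosiglitazone array was higher than every obese array, and array 2 was more than 4 log2 units above the other 4 rosiglitazone arrays. Ucp1 rose by 4.67 (SE 0.75, adjusted p = 0.000404), and by 3.59 without rosiglitazone array 2 (adjusted p = 9.39e-06). Obese levels lay under the median gene level, so no fold is given.

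Other genes with the largest rises serve fatty acid handling. Fabp3, the heart-type fatty acid-binding protein, lay at 8.8, 8.08, 7.99, 8.68 and 8.77 on rosiglitazone arrays and at 5.66, 4.02, 4.4, 5.28 and 4.76 on obese arrays. The groups did not overlap, and Fabp3 rose by 3.64 (SE 0.43, adjusted p = 2.63e-05), or 12.5-fold. Cpt1b, the muscle-type enzyme that commits fatty acids to mitochondrial import, stood at 8.46, 9.82, 7.49, 8.11 and 7.93 against 5.42, 4.58, 5.11, 5.78 and 5.24, with rosiglitazone array 2 highest, and rose by 3.14 (SE 0.43, adjusted p = 9.49e-05). Me1, the cytosolic malic enzyme that makes NADPH for fatty acid synthesis, stood at 9.23 to 10.05 against 6.58 to 7.11, a narrow spread in both groups, and rose by 2.91 (SE 0.31, adjusted p = 7.64e-06), or 7.53-fold. Pnpla3, a lipase-family protein of lipid droplets, rose by 2.4 (SE 0.45, adjusted p = 0.0015), with levels of 6.05 to 8.35 against 3.74 to 5.96, the closest approach of the groups among these genes. Fabp3 and Cpt1b are also genes of muscle; of 10 measured skeletal muscle markers and 6 cardiac muscle markers none passed, with medians of -0.048 and 0.056.

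The 12 largest rises without overlap between the groups also held genes with other roles. Thbs4, a thrombospondin of the extracellular matrix, rose by 3.35 (SE 0.45, adjusted p = 9.49e-05), with rosiglitazone levels of 7.78, 3.83, 6.78, 6.18 and 7.04 against 2.74 to 3.62. Array 2 was again the odd one, this time the lowest of the rosiglitazone arrays. Prg4, the lubricating proteoglycan lubricin, rose by 3.01 (SE 0.38, adjusted p = 4.6e-05), from 4.81 ± 0.87 (SD) to 7.83 ± 0.54. It was the only one of 10 measured mesothelial markers to pass, and the other 9 differed by -0.75 to 1.58. Aadat, an aminotransferase of lysine and kynurenine breakdown, rose by 2.71 (SE 0.31, adjusted p = 2.5e-05), or 6.55-fold. The aldo-keto reductase Akr1c15 rose by 2.66 (SE 0.2, adjusted p = 1.16e-07), but it belongs to a family of close copies that array probes may not tell apart. Vat1l rose by 2.86 (SE 0.24, adjusted p = 6.72e-07) and Nupr1, a small nuclear protein induced by stress, rose by 2.38 (SE 0.42, adjusted p = 0.000886). None of the 12 had a rosiglitazone array inside the obese range, which the way they were chosen required.

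**Figure D2:**
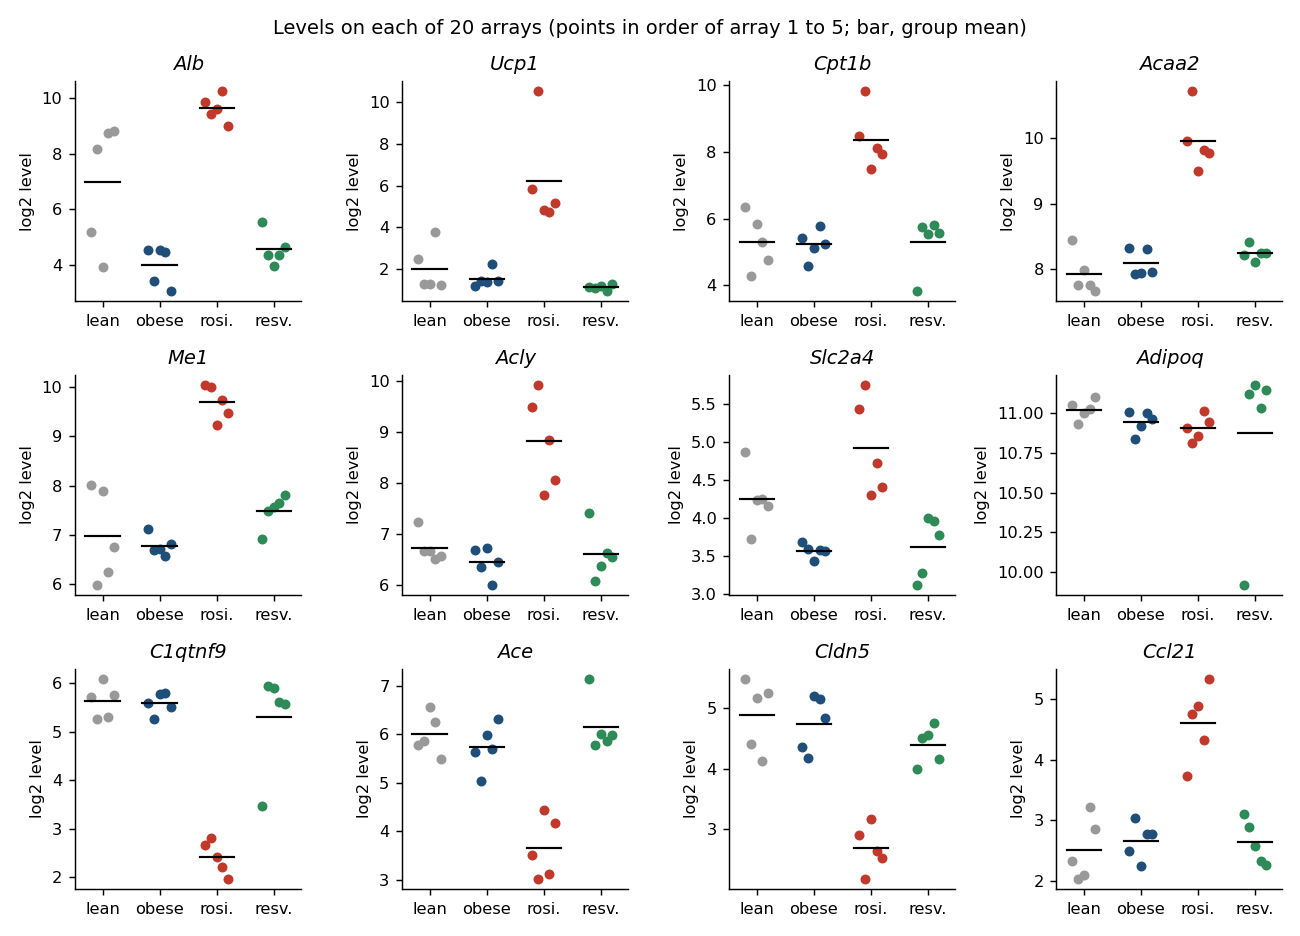
Log2 levels of 12 genes on each of the 20 arrays, with 5 points per group in the order of arrays 1 to 5 and a bar at the group mean; rosi. is rosiglitazone and resv. is resveratrol, and each panel has its own axis. Alb, Ucp1, Cpt1b, Acaa2, Me1, Acly, Slc2a4 and Ccl21 lie higher on rosiglitazone arrays than on obese arrays with no overlap, C1qtnf9, Ace and Cldn5 lie lower with no overlap, and Adipoq overlaps.

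The largest fall was that of C1qtnf9, a secreted relative of adiponectin. It lay at 2.66, 2.8, 2.41, 2.21 and 1.96 on rosiglitazone arrays and at 5.59, 5.26, 5.78, 5.81 and 5.52 on obese arrays. No rosiglitazone array came near an obese array, and C1qtnf9 fell by 3.18 (SE 0.33, adjusted p = 7.64e-06) to a level under the median gene. With the mean of all features of a gene in place of the brightest, its difference was -1.88 and no longer the largest fall, that of Nnat being -2.1. Nnat, the imprinted endoplasmic reticulum protein neuronatin, stood at 7.12, 8.57, 7.22, 7.23 and 8.92 against 10.25, 9.91, 10.39, 10.45 and 10.21, with rosiglitazone arrays 2 and 5 above the other 3, and fell by 2.43 (SE 0.45, adjusted p = 0.00141), or 5.4-fold. Ace, the enzyme that makes angiotensin II, stood at 3.51, 3.01, 4.43, 3.12 and 4.17 against 5.64, 5.04, 5.98, 5.68 and 6.31, without overlap, and fell by 2.08 (SE 0.3, adjusted p = 0.000164), or 4.23-fold. Ace was the only one of 15 genes of the renin-angiotensin and natriuretic list to pass.

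Among the other large falls, Alcam, a cell adhesion molecule, fell by 2.05 (SE 0.39, adjusted p = 0.00189), and Pln, phospholamban, an inhibitor of the sarcoplasmic calcium pump, fell by 1.9 (SE 0.26, adjusted p = 9.69e-05). Cytl1, a secreted cytokine-like protein, fell by 1.82 (SE 0.29, adjusted p = 0.000342), the membrane-bound carbonic anhydrase Car4 fell by 1.81 (SE 0.37, adjusted p = 0.00316), and Igsf10 fell by 1.77 (SE 0.29, adjusted p = 0.000414). Igfbp3, a binding protein of insulin-like growth factors, fell by 1.77 (SE 0.29, adjusted p = 0.000561), from 7.31 ± 0.54 (SD) to 5.54 ± 0.62. Spetex2g, of a rodent family with many near-identical copies, fell by 1.81 (SE 0.42, adjusted p = 0.0087) and is uncertain for that reason. In Car4 rosiglitazone array 2 lay at 4.56 and the lowest obese array at 4.59, so the groups nearly met. The remaining 2 of the 12 largest falls without overlap between the groups, the endothelial gene Cldn5 and the chemokine Ccl6, are described with vessels and immune genes.

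The general markers of white fat did not pass. Adipoq, adiponectin, lay at 10.91, 10.81, 10.86, 11.02 and 10.95 on rosiglitazone arrays and 11.01, 10.84, 10.92, 11.01 and 10.96 on obese arrays, ranges that overlapped, with a difference of -0.041 (SE 0.17, adjusted p = 0.932). Differences were -0.039 (adjusted p = 0.921) for Fabp4, the adipocyte fatty acid-binding protein, 0.26 (adjusted p = 0.565) for the droplet coat protein Plin1, -0.2 (adjusted p = 0.777) for the droplet fusion protein Cidec and -0.27 (adjusted p = 0.76) for Pck1, the enzyme of glyceroneogenesis. Lpl, lipoprotein lipase, differed by -0.14 (adjusted p = 0.747) and the fatty acid transporter Cd36 by -0.24 (adjusted p = 0.468). Lep, leptin, differed by -1.05 (SE 0.67, adjusted p = 0.375), with 9.23, 7.49, 9.58, 8.78 and 9.43 against 10.20, 9.34, 9.93, 10.08 and 10.20, and rosiglitazone array 2 was the lowest of the 10; without that array the difference was -0.69. Angptl4, an inhibitor of lipoprotein lipase, differed by 0.64 (adjusted p = 0.155), and without obese array 2 by 0.38. The difference of Plin1 without that array was 0.15.

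Of 36 measured textbook target genes of PPARG, 12 rose (33.3%, against 7.19% of all genes) and none fell, with a median difference of 0.51. The 12 were genes of oxidation and thermogenesis (Ucp1, Cpt1b, Acadl, Acadm, Ehhadh, Acaa1a, Pex11a, Cidea, Pdk4), lipogenesis (Me1) and fatty acid or glucose entry (Slc27a1, Slc2a4). Slc2a4, the insulin-responsive glucose transporter GLUT4, stood at 5.44, 5.75, 4.3, 4.73 and 4.4 against 3.68, 3.59, 3.43, 3.58 and 3.56, without overlap, and rose by 1.36 (SE 0.25, adjusted p = 0.00147), or 2.56-fold. Slc27a1, a fatty acid transport protein, rose by 2.23 (SE 0.27, adjusted p = 2.72e-05), or 4.7-fold. Of 31 measured PPARG partners and adipogenic transcription factors none rose and 2 fell (6.45%), beside 7.19% and 2.67% of all genes. The 2 were Nrip1, a corepressor of nuclear receptors, with a fall of 0.7 (adjusted p = 0.0291), and Creb1, with a fall of 0.44 (adjusted p = 0.0459). Neither call held throughout: Nrip1 lost it without rosiglitazone array 2 or 4 or obese array 3 or 5 (adjusted p = 0.0552 to 0.0781), and Creb1 without rosiglitazone array 1, 2, 3 or 4 or obese array 1, 2, 4 or 5 (adjusted p = 0.0505 to 0.139).

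All 18 measured genes of mitochondrial beta-oxidation, the cycle that shortens fatty acids, rose (100%, against 7.19% of genes), by 0.64 to 2.09, with a median of 1.46 against 0.0084 over all genes. All 18 rose as well without the 3 arrays that stood apart. Acaa2, the thiolase of the last step, lay at 9.96, 10.72, 9.5, 9.82 and 9.77 on rosiglitazone arrays and 8.32, 7.93, 7.94, 8.31 and 7.96 on obese arrays, without overlap, and rose by 1.86 (SE 0.19, adjusted p = 5.79e-06). The long-chain dehydrogenase Acadl stood at 9.8, 10.69, 9.19, 9.64 and 9.13 against 7.69, 7.9, 7.8, 8.0 and 7.55 and rose by 1.9 (SE 0.22, adjusted p = 2.59e-05). Acads, the short-chain dehydrogenase, rose by 2.09 (SE 0.2, adjusted p = 3.94e-06), and Decr1, the reductase needed for unsaturated fatty acids, rose by 1.52 (SE 0.22, adjusted p = 0.000169). Rosiglitazone array 2 was the highest of the 5 in each of these 4 genes.

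Of the carnitine shuttle, which carries fatty acids into mitochondria, 5 of 7 measured genes rose. Beside Cpt1b, the inner-membrane transferase Cpt2 stood at 6.82, 8.23, 5.76, 6.51 and 6.39 against 4.85, 4.27, 4.34, 5.06 and 4.76 and rose by 2.09 (SE 0.3, adjusted p = 0.000152), or 4.25-fold, and the carrier Slc25a20 rose by 1.97 (SE 0.31, adjusted p = 0.000389). Crot, the peroxisomal octanoyltransferase, rose by 0.87 (SE 0.18, adjusted p = 0.00416). The liver-type isoform of the first enzyme went the other way in sign: Cpt1a differed by -0.56 (adjusted p = 0.185), with obese array 2 highest, and by -0.32 without that array. Of 24 acyl-CoA synthetases and thioesterases 7 rose (29.2%, beside 7.19% of all genes) and none fell. Among the risen were the thioesterases Acot2, by 1.85 (adjusted p = 0.000263), and Acot13, by 1.7 (adjusted p = 0.000826). The count was 4 without rosiglitazone array 1 or 2.

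Of 36 measured genes of peroxisomes, which shorten very long-chain and branched fatty acids, 18 rose and 1 fell, with a median of 0.55. The bifunctional enzyme Ehhadh rose by 1.5 (SE 0.31, adjusted p = 0.0032), with rosiglitazone array 3 (5.11) just under obese array 3 (5.14), and Decr2, the peroxisomal counterpart of Decr1, rose by 1.57 (SE 0.19, adjusted p = 2.63e-05). Pex3, needed to form peroxisomal membranes, stood at 6.6, 7.23, 6.11, 6.3 and 6.55 against 5.55, 4.49, 5.3, 5.29 and 5.35 and rose by 1.36 (SE 0.22, adjusted p = 0.000497). The gene that fell was Scp2, the sterol carrier protein, by 1.15 (adjusted p = 0.0433), at levels of 1.6 to 4.16 against 3.22 to 4.92. Its call was lost without rosiglitazone array 2, 3 or 4 or obese array 1, 2, 3 or 5 (adjusted p = 0.0586 to 0.125).

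Pyruvate entry and the tricarboxylic acid cycle rose together. Of 14 measured cycle genes 13 rose and none fell, with a median of 1.42, and of 9 genes of the pyruvate dehydrogenase complex and its regulators 6 rose. Cs, citrate synthase, lay at 8.88, 9.71, 8.37, 8.87 and 8.45 on rosiglitazone arrays and 7.75, 6.84, 7.06, 7.34 and 7.08 on obese arrays, without overlap, and rose by 1.64 (SE 0.24, adjusted p = 0.000171), or 3.13-fold. Idh3b, of the NAD-dependent isocitrate dehydrogenase, rose by 1.79 (SE 0.22, adjusted p = 4.45e-05), and Suclg1, of succinyl-CoA ligase, rose by 1.39 (SE 0.21, adjusted p = 0.000236).

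Of 9 measured genes of pyruvate oxidation 6 rose, among them subunits of the enzyme that opens the pathway and 2 of the kinases that close it, Pdk1 and Pdk4. Pdha1 and Pdhb, the 2 subunits of the first enzyme, rose by 1.36 (adjusted p = 7.59e-05) and 1.73 (adjusted p = 9.49e-05). The inhibitory kinase Pdk1 stood at 7.23, 8.09, 6.7, 7.12 and 6.71 against 4.91, 5.47, 5.78, 5.52 and 5.14 and rose by 1.81 (SE 0.21, adjusted p = 2.5e-05). Pdk4, the kinase induced in fasting, stood at 10.03, 10.71, 9.64, 9.86 and 9.39 against 9.19, 8.47, 8.66, 7.73 and 8.08, without overlap, and rose by 1.5 (SE 0.42, adjusted p = 0.0258). The Pdk4 adjusted p was 0.0543 without rosiglitazone array 1, 0.0676 without rosiglitazone array 2, 0.0691 without obese array 4 and 0.0648 without obese array 5. Branched-chain amino acid breakdown had 17 of 20 measured genes that rose, with a median of 0.97, and of 4 ketone body genes 3 rose.

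The respiratory chain pumps protons with electrons from these pathways, and ATP synthase (complex V) or Ucp1 lets the protons back. Of 28 measured subunits of complex I 25 rose and none fell, and of 34 subunits of complexes II to V 26 rose and 1 fell. Medians were 1.16 and 0.98. In complex I, Ndufa9 stood at 7.57, 8.46, 7.03, 7.39 and 7.08 against 6.23, 5.71, 6.07, 6.11 and 5.92 and rose by 1.5 (SE 0.2, adjusted p = 9.49e-05), and Ndufa11 and Ndufs7 rose by 1.43 (adjusted p = 1.65e-05) and 1.45 (adjusted p = 0.000199). The core subunit Uqcrc1 of complex III stood at 7.69, 8.6, 7.19, 7.23 and 7.09 against 5.91, 5.6, 5.57, 6.05 and 5.23 and rose by 1.88 (SE 0.24, adjusted p = 4.44e-05), or 3.69-fold. Cox7b of complex IV rose by 1.67 (SE 0.25, adjusted p = 0.000246) and Atp5f1d of ATP synthase rose by 1.51 (SE 0.2, adjusted p = 8.79e-05). In all 6 genes the groups did not overlap and rosiglitazone array 2 was highest.

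The exception was Atp5f1c, the gamma subunit of ATP synthase. It stood at 3.19, 3.81, 3.59, 3.21 and 3.9 on rosiglitazone arrays and 4.34, 4.99, 4.52, 3.97 and 4.8 on obese arrays, without overlap, and fell by 0.98 (SE 0.23, adjusted p = 0.00989). Whether its feature measures the main transcript of the gene was not tested. Of 41 measured assembly factors and coenzyme Q enzymes 24 rose and none fell, with a median of 0.59. The count of rises was 16 after quantile normalisation again and 17 without the 3 arrays that stood apart. Coq8a, a kinase-like protein of coenzyme Q synthesis, stood at 6.24, 8.22, 5.07, 6.37 and 4.91 against 4.06, 4.1, 4.19, 3.95 and 3.79 and rose by 2.14 (SE 0.42, adjusted p = 0.00233), and Coq9, which binds coenzyme Q precursors, rose by 1.47 (SE 0.28, adjusted p = 0.00158).

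Because these nuclear genes moved together, the promoters of the risen genes were searched for motifs of nuclear receptors. The table of RefSeq promoters (GRCr8, 250 bases before to 50 after the start) held 890 of the genes that rose and 321 of those that fell. AGGTCANAGGTCA, the direct repeat of AGGTCA with 1 base between its copies that PPARG and RXR bind, was searched on both strands and found in 0 promoters of risen genes, 0 of fallen genes, 4 of the 11723 tested genes with a promoter (0.0341%) and 0.0583% of all 27457 promoters. TNAAGGTCA, the extended single motif bound by estrogen-related receptors, which drive mitochondrial genes, was found on either strand in 9 promoters of risen genes (1.01%), 3 of fallen genes (0.935%), 92 of the 11723 tested genes (0.785%) and 1.15% of all promoters. The exact direct repeat was too rare among tested genes (0.0341%) for its 0 matches in 890 and 321 promoters to show a lack of sites. A looser search left 1 base free in each copy of the repeat. It matched 1 promoter of risen genes (0.112%), 1 of fallen genes (0.312%) and 43 of the 11723 tested genes (0.367%). Whether these shares differ was not tested. Lists of respiration and its assembly, the tricarboxylic acid cycle, beta-oxidation, the mitochondrial ribosome and import held 142 risen genes with a listed promoter. The other mitochondrial lists were not part of this count. Of the 142, 3 held the extended single motif: Ndufb4 of complex I, Sdhd of complex II and Timm8b, a chaperone of import. Sdhd and Timm8b start 96 bases apart on opposite strands of chromosome 8 and share 1 match, so both are shown by the Sdhd sequence. The promoters are printed 5′ to 3′ with the match in capitals, at chr11:76568928-76569227 on the plus strand for Ndufb4 and chr8:59850592-59850891 on the minus strand for Sdhd.
Ndufb4: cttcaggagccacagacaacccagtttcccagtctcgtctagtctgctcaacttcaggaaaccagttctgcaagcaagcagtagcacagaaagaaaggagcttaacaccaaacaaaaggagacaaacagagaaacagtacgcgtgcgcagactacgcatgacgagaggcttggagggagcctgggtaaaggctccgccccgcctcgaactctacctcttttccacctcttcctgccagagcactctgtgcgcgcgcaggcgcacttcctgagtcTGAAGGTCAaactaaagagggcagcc
Sdhd: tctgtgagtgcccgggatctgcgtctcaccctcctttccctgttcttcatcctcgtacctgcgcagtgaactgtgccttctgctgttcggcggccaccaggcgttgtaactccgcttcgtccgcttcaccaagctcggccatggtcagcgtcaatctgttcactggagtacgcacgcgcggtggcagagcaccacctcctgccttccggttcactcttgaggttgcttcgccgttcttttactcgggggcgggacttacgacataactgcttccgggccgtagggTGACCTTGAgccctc
In Sdhd the match reads as the reverse complement, TGACCTTGA, within the first 50 transcribed bases. Sdhd stood at 7.13, 7.82, 6.66, 7.28 and 6.92 against 6.27, 5.86, 6.12, 6.05 and 5.75, and its neighbour Timm8b at 6.92, 6.81, 6.56, 6.39 and 6.63 against 5.77, 5.51, 5.64, 5.69 and 5.81. Neither overlapped between groups. Sdhd rose by 1.15 (SE 0.22, adjusted p = 0.00193) and Timm8b rose by 0.98 (SE 0.19, adjusted p = 0.00181), while Ndufb4 rose by 0.9 (SE 0.21, adjusted p = 0.00803). A match describes the letters of the window and shows no binding.

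Of 62 measured proteins of the mitochondrial ribosome, which translates the few proteins encoded in mitochondrial DNA, 39 rose and none fell, and 61 of the 62 differences were positive (median 0.66). Mrpl38 stood at 5.53, 5.86, 5.13, 5.1 and 4.89 against 4.36, 3.79, 3.78, 3.34 and 3.7 and rose by 1.51 (SE 0.18, adjusted p = 3.27e-05), and Mrpl4 rose by 1.37 (SE 0.22, adjusted p = 0.000436). Without the 3 arrays that stood apart the count was 24. Of 39 genes of import and protein quality control 26 rose. Among them were the chaperone Trap1, by 1.52 (adjusted p = 0.00011), and the import motor subunit Timm44, by 1.3 (adjusted p = 0.00046). The import count was 22 after quantile normalisation again and 19 without the 3 arrays that stood apart.

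Of 16 measured regulators of mitochondrial content 2 rose (12.5%), Ppara and Tfam, and Nrip1 fell (6.25%), beside 7.19% and 2.67% of all genes. With 1 array left out, 0 to 2 of the regulators rose. Ppara, the fatty acid-sensing relative of PPARG, stood at 5.49, 8.18, 5.18, 5.39 and 4.28 against 3.52, 5.24, 3.73, 3.85 and 3.42, with array 2 highest in both groups and groups that overlapped through it, and rose by 1.75 (SE 0.48, adjusted p = 0.0226). Without rosiglitazone array 2 it rose by 1.13 (adjusted p = 0.0283), and without obese array 5 its adjusted p was 0.0626. Tfam, which packages mitochondrial DNA, rose by 0.54 (SE 0.17, adjusted p = 0.0405). Its call was lost without rosiglitazone array 1, 2, 3 or 5 or obese array 1, 2 or 5 (adjusted p = 0.0547 to 0.112). The adjusted p of Tfam was 0.146 after quantile normalisation again and 0.148 without the 3 arrays that stood apart. Ppargc1a, the coactivator PGC-1alpha, stood at 3.34, 6.69, 1.84, 2.25 and 2.57 against 2.08, 2.72, 2.41, 2.22 and 1.98. Rosiglitazone array 2 was far above the other 9 arrays, and the difference was 1.05 (SE 0.56, adjusted p = 0.267), or 0.21 without that array. Of 20 genes that copy and express mitochondrial DNA 6 rose (30%, beside 7.19% of all genes). The count was 3 without rosiglitazone array 1 or 2 or obese array 2, and 10 without rosiglitazone array 4. Lrpprc, which stabilises mitochondrial messages, rose by 1.23 (SE 0.22, adjusted p = 0.00112).

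Of 18 measured genes typical of brown or beige adipocytes 5 rose (27.8%) and 1 fell (5.56%), beside 7.19% and 2.67% of all genes. Beside Ucp1, Fabp3 and Cpt1b, the droplet protein Cidea stood at 10.49, 11.32, 10.23, 10.44 and 10.07 against 9.02, 7.47, 8.42, 8.7 and 8.75, without overlap, and rose by 2.04 (SE 0.46, adjusted p = 0.00634), or 4.11-fold. Slc36a2, an amino acid transporter of brown fat, rose by 2.13 (SE 0.52, adjusted p = 0.0112), from 3.71 ± 0.47 (SD) to 5.84 ± 1.09, and without the 3 arrays that stood apart the difference was 1.53 (adjusted p = 0.0616). Tmem26, described as a beige surface marker in mice, fell by 0.82 (SE 0.23, adjusted p = 0.0291) at levels under the median gene, a call lost without rosiglitazone array 2 or 5 or obese array 1, 4 or 5 (adjusted p = 0.0587 to 0.0742).

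Genes of fatty acid synthesis rose beside those of oxidation. Of 15 measured genes of lipogenesis and its NADPH supply 9 rose and none fell, with a median of 1.01. Acly, which makes cytosolic acetyl-CoA from citrate, stood at 9.49, 9.92, 7.75, 8.83 and 8.06 against 6.69, 6.35, 6.73, 5.99 and 6.44, without overlap, and rose by 2.37 (SE 0.32, adjusted p = 9.14e-05), or 5.17-fold. The citrate carrier Slc25a1 rose by 1.43 (SE 0.16, adjusted p = 1.86e-05), Acss2, which activates acetate, rose by 1.68 (SE 0.21, adjusted p = 5.1e-05), and the elongase Elovl6 rose by 2.32 (SE 0.56, adjusted p = 0.0103). Elovl6 levels were 9.12, 9.23, 7.84, 8.72 and 8.39 against 6.68, 7.18, 6.04, 5.85 and 5.94. Of 13 desaturases and elongases 4 rose (30.8%, beside 7.19% of all genes), among them Scd2, a stearoyl-CoA desaturase, by 1.35 (adjusted p = 0.00537).

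Of 20 measured genes of glyceroneogenesis and triglyceride synthesis 4 rose (20%), beside 7.19% of all genes. Pc, pyruvate carboxylase, stood at 8.36, 8.39, 8.1, 8.67 and 7.85 against 6.42, 5.78, 6.33, 6.66 and 5.74 and rose by 2.09 (SE 0.22, adjusted p = 7.64e-06), or 4.26-fold, and the acyltransferase Agpat1 rose by 0.63 (SE 0.13, adjusted p = 0.00317). The other 2, the acyltransferase Dgat1, by 1.07 (adjusted p = 0.0271), and Gpd1l1, by 0.76 (adjusted p = 0.0454), were less firm. Dgat1 lost its call without rosiglitazone array 1 or 2 or obese array 2 or 5 (adjusted p = 0.0618 to 0.0788) and Gpd1l1 without rosiglitazone array 1, 3, 4 or 5 or obese array 2, 3, 4 or 5 (adjusted p = 0.0701 to 0.117). The count of the list was 2 without rosiglitazone array 1 or obese array 2 or 5. Of 20 genes of lipolysis and its adrenergic control 1 rose and 1 fell (5% each), beside 7.19% and 2.67% of all genes. Prkar2a, a regulatory subunit of protein kinase A, rose by 0.51 (adjusted p = 0.0399). Its call was lost without rosiglitazone array 1, 2, 3 or 5 or obese array 2, 4 or 5 (adjusted p = 0.0703 to 0.109). The adenylate cyclase Adcy3 fell by 0.73 (adjusted p = 0.00953). Counts of rises on that list were 0 without rosiglitazone array 1, 3 or 5 or obese array 2, 4 or 5, 2 without rosiglitazone array 4 or obese array 1, and counts of falls 2 without obese array 2. Of 15 lipid droplet proteins only Cidea and Aup1 rose (13.3%), and Aup1 (adjusted p = 0.0268) lost its call without rosiglitazone array 5 or obese array 2 or 4 (adjusted p = 0.0521 to 0.0751). Of 22 genes of lipoprotein lipase action and fatty acid uptake 4 rose (18.2%). Angptl8, a secreted regulator of lipoprotein lipase, rose by 1.92 (SE 0.43, adjusted p = 0.00585), with 6.78, 7.19, 5.27, 6.2 and 6.42 against 4.58, 3.52, 3.87, 5.82 and 4.46.

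Of 18 measured genes of glucose transport and glycolysis 7 rose (38.9%, beside 7.19% of all genes) and none fell. Pgk1, phosphoglycerate kinase, rose by 1.21 (SE 0.23, adjusted p = 0.00183), and Ldhb, the heart-type lactate dehydrogenase subunit, rose by 1.41 (SE 0.26, adjusted p = 0.00131). Glycogen genes rose in 3 of 11 cases (27.3%). Among them were both the synthase Gys1, by 1.49 (adjusted p = 0.000263), and the phosphorylase Pygl, by 1.5 (adjusted p = 0.000193). The glycogen count was 2 after quantile normalisation again and 2 without the 3 arrays that stood apart.

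Of 26 measured proteasome subunits 19 rose, none fell and all 26 differences were positive, with a median of 0.63. Psma4 stood at 7.14, 7.45, 7.29, 6.77 and 7.23 against 6.49, 6.12, 6.26, 6.18 and 6.2 and rose by 0.93 (SE 0.15, adjusted p = 0.000354), and Psmb7 rose by 0.84 (SE 0.13, adjusted p = 0.000354), a small change beside a small spread. Of 63 measured cytosolic ribosomal proteins none passed in either direction, and their median was -0.11. Of 27 cell cycle genes none passed. Of 21 antioxidant enzymes 12 rose: Sod2, the mitochondrial superoxide dismutase, stood at 8.43, 8.89, 7.75, 7.71 and 8.07 against 7.28, 6.15, 6.37, 6.88 and 6.28 and rose by 1.58 (SE 0.23, adjusted p = 0.000203), its cytosolic relative Sod1 rose by 0.96 (SE 0.13, adjusted p = 0.000112), the mitochondrial peroxiredoxin Prdx3 rose by 1.31 (SE 0.19, adjusted p = 0.000145) and the glutathione synthetase Gss rose by 1.38 (SE 0.22, adjusted p = 0.000336).

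**Figure D3:**
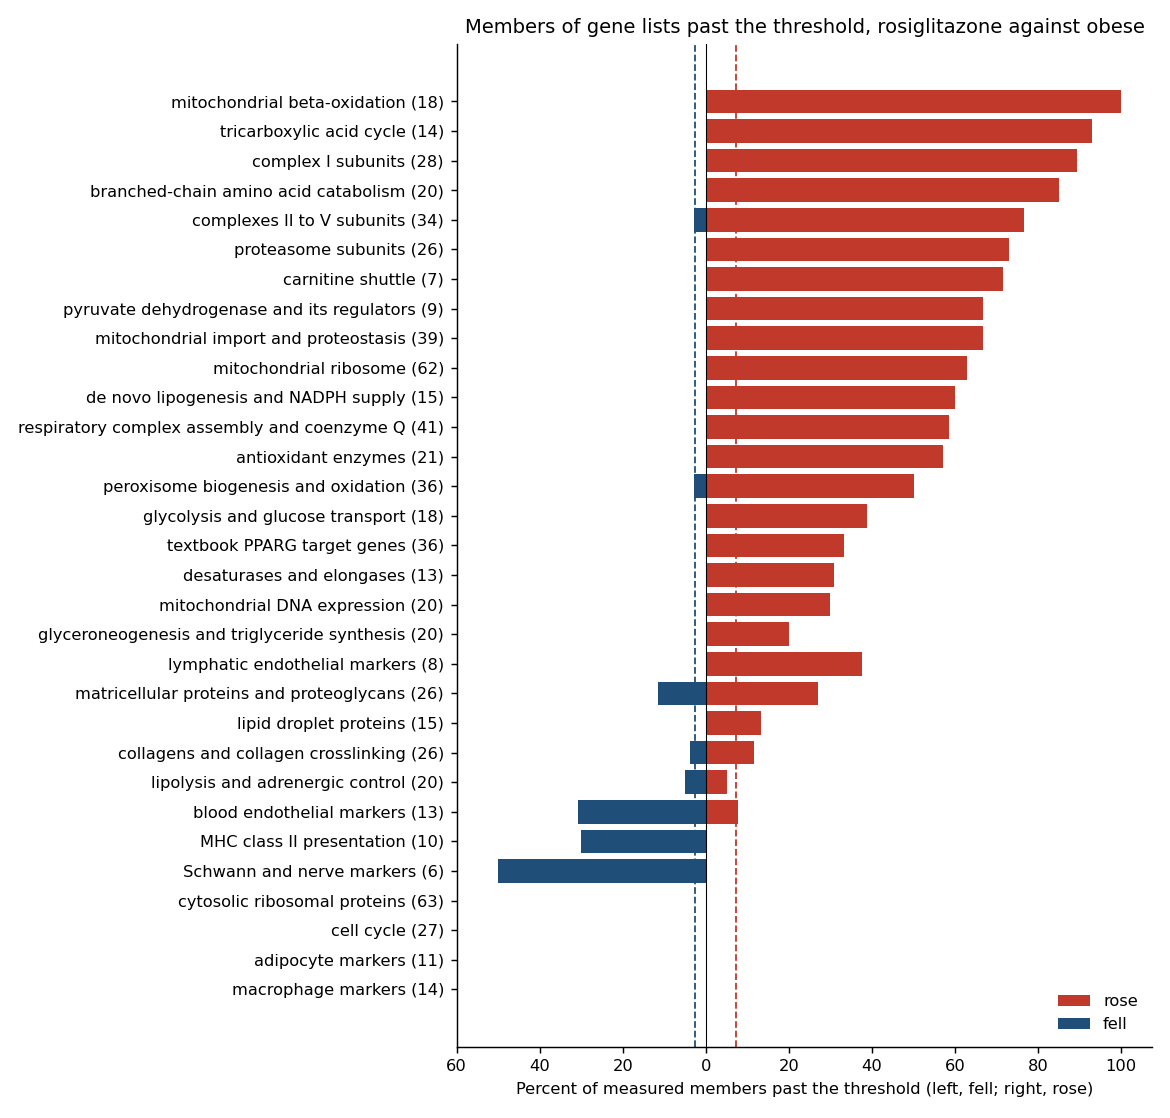
Percent of the measured members of 31 gene lists that passed the threshold, rises to the right in red and falls to the left in blue, with the number of measured members in brackets; dashed lines mark the 7.19% and 2.67% of all genes that rose and fell. Beta-oxidation reaches 100%. Complex I, complexes II to V, the tricarboxylic acid cycle, branched-chain amino acid catabolism and the proteasome lie at 73.1% or above. Cytosolic ribosomal proteins, cell cycle, adipocyte and macrophage lists show no bar.

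Over the union of 12 mitochondrial lists (respiration and its assembly, the cycle, pyruvate, fatty acid, ketone and branched-chain oxidation, the ribosome, mitochondrial DNA expression and import), 199 of 287 measured genes rose (69.3%), 1 fell and 274 had a positive difference. The union leaves out the carriers of the inner membrane, the Slc25 family, of which 12 of 38 rose (31.6%) and 1 fell, Slc25a2, with a median of 0.3, and the regulators of mitochondrial content, of which 2 of 16 rose. The count of risen genes of the union was 161 after quantile normalisation again and also 161 without the 3 arrays that stood apart. Of 53 pathway lists, 15 had at least 50% of their measured members risen and 0 had as many fallen.

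Most changes of blood endothelial markers were falls and all changes of lymphatic markers were rises. Of 13 measured markers of blood endothelium 4 fell and 1 rose, against 2.67% and 7.19% of all genes, and of 8 measured markers of lymphatic endothelium 3 rose and all 8 differences were positive. Cldn5, a tight-junction protein of blood endothelium, lay at 2.91, 2.18, 3.16, 2.64 and 2.52 on rosiglitazone arrays and 4.35, 4.17, 5.21, 5.15 and 4.83 on obese arrays. The groups did not overlap, and Cldn5 fell by 2.06 (SE 0.26, adjusted p = 4.49e-05) to a level under the median gene. The endothelial cadherin Cdh5 fell by 0.96 (SE 0.23, adjusted p = 0.00949), with 7.13 to 8.03 against 8.04 to 8.91. The capillary and venous sialomucin Emcn fell by 0.91 (SE 0.19, adjusted p = 0.00316) and the receptor kinase Tie1 fell by 0.64 (SE 0.15, adjusted p = 0.00833). Vwf, von Willebrand factor, was the marker that rose, by 0.79 (SE 0.18, adjusted p = 0.009), with 5.1, 4.81, 5.04, 4.77 and 5.17 against 4.32, 3.68, 4.23, 4.86 and 3.86 and obese array 4 within the rosiglitazone range.

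In lymphatic endothelium, Ccl21, the chemokine that draws lymphocytes into lymph, lay at 3.73, 4.75, 4.89, 4.33 and 5.34 on rosiglitazone arrays and 2.49, 3.04, 2.24, 2.77 and 2.78 on obese arrays, without overlap. It rose by 1.94 (SE 0.27, adjusted p = 9.95e-05). Mmrn1, the secreted protein multimerin 1, stood at 5.97, 5.04, 5.4, 3.93 and 5.84 against 2.68, 3.53, 2.64, 2.95 and 2.96 and rose by 2.29 (SE 0.34, adjusted p = 0.000193). Sema3d, a secreted guidance protein, rose by 1.08 (SE 0.32, adjusted p = 0.037), a call lost without rosiglitazone array 1, 3 or 5 or obese array 1, 2, 3 or 4 (adjusted p = 0.0547 to 0.0849). The defining transcription factor Prox1 lay low in both groups and differed by 0.22 (adjusted p = 0.757), and the hyaluronan receptor Lyve1 by 0.36 (adjusted p = 0.54), with 0.17 without rosiglitazone array 5, 0.19 without obese array 2 and 0.59 without rosiglitazone array 2. Mean levels over the 8 markers were 3.77 to 4.69 on rosiglitazone arrays and 3.03 to 3.51 on obese arrays, and over the 13 blood markers 5.04 to 5.25 and 5.15 to 5.93.

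**Figure D4:**
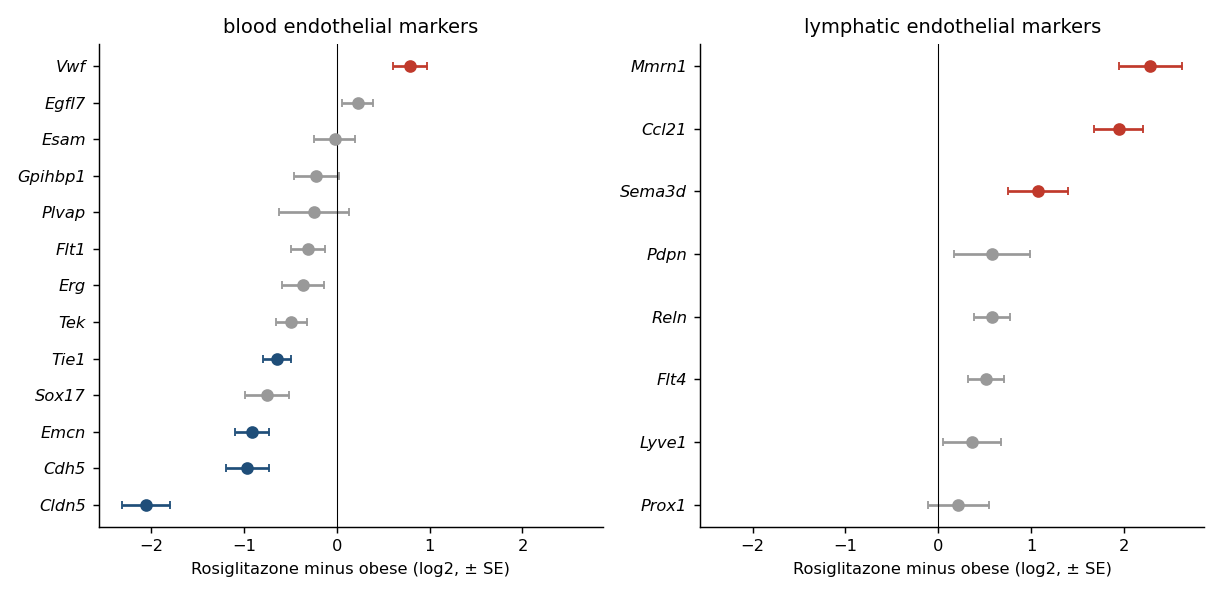
Log2 difference rosiglitazone minus obese, with bars of 1 standard error, for the 13 measured blood endothelial markers (left) and the 8 lymphatic endothelial markers (right); red rose, blue fell and grey did not pass. Cldn5, Cdh5, Emcn and Tie1 lie to the left among the blood markers, and Ccl21 and Mmrn1 lie farthest right among the lymphatic markers.

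Of 6 measured Schwann and nerve markers 3 fell (50%), beside 2.67% of all genes. Scn7a, a sodium channel-family protein of glia, stood at 2.95, 3.86, 2.57, 2.79 and 3.63 against 3.83, 5.75, 4.86, 5.09 and 4.7 and fell by 1.69 (SE 0.31, adjusted p = 0.00121), and Cdh19, a cadherin of the Schwann cell lineage, fell by 1.05 (SE 0.23, adjusted p = 0.00509). S100b, which adipocytes also express, fell by 1.04 (SE 0.32, adjusted p = 0.0395), a call lost without rosiglitazone array 1, 2, 3 or 4 or obese array 1, 3, 4 or 5 (adjusted p = 0.0553 to 0.103). The defining factor Sox10 differed by -0.12 (adjusted p = 0.81). Notch3, a receptor of mural cells, was the only one of 9 smooth muscle and pericyte markers to pass and fell by 0.71 (SE 0.17, adjusted p = 0.00859), with counts of falls on that list of 2 without rosiglitazone array 2 or obese array 1.

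Of 26 measured collagens and crosslinking enzymes 3 rose (11.5%) and 1 fell (3.85%), beside 7.19% and 2.67% of all genes, and the count of rises was 11 without rosiglitazone array 2. P4ha3, a subunit of collagen prolyl hydroxylase, stood at 6.16, 3.03, 6.45, 6.07 and 7.3 against 4.23, 3.0, 2.9, 2.69 and 3.04 and rose by 2.63 (SE 0.55, adjusted p = 0.00386). Col8a1, a short-chain collagen, stood at 5.58, 2.7, 5.78, 6.08 and 5.99 against 3.43, 2.1, 2.53, 2.56 and 2.99 and rose by 2.5 (SE 0.47, adjusted p = 0.00158). In both genes rosiglitazone array 2 lay in the obese range and the other 4 lay well above it. Loxl1, which crosslinks elastin, rose by 2.01 (SE 0.44, adjusted p = 0.0051), while Col6a6 fell by 1.2 (SE 0.25, adjusted p = 0.00405).

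Of 26 measured matricellular proteins and proteoglycans 7 rose (26.9%) and 3 fell (11.5%), beside 7.19% and 2.67% of all genes. Beside Thbs4 and Prg4, the growth factor-binding protein Ccn2 stood at 5.75, 3.84, 5.09, 5.32 and 5.03 against 3.78, 3.53, 3.47, 3.17 and 3.23 and rose by 1.57 (SE 0.27, adjusted p = 0.000731). The falls were Sparcl1, Lum and Sparc, with counts of 1 without obese array 5. Sparcl1, a secreted relative of Sparc, stood at 7.22, 6.92, 7.4, 7.09 and 7.29 against 8.53, 8.96, 8.94, 8.57 and 8.94, without overlap and with narrow spread, and fell by 1.61 (SE 0.18, adjusted p = 1.73e-05), or 3.05-fold. The keratan sulfate proteoglycan Lum fell by 1.22 (SE 0.31, adjusted p = 0.0155), a call lost without obese array 5 (adjusted p = 0.0506). Sparc, a collagen-binding glycoprotein, fell by 0.46 (SE 0.15, adjusted p = 0.0494), and by 0.3 without rosiglitazone array 2. It lost its call without rosiglitazone array 1, 2, 3 or 5 or obese array 1, 3, 4 or 5 (adjusted p = 0.0532 to 0.126). Bmp3, a growth factor of the BMP family, fell by 1.44 (SE 0.31, adjusted p = 0.00426).

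Of the immune genes, those of antigen presentation by MHC class II fell in 3 of 10 cases (30%), beside 2.67% of all genes. Cd74, the invariant chain, stood at 8.74, 7.84, 9.64, 8.79 and 9.26 against 10.23, 9.38, 10.25, 10.53 and 10.21 and fell by 1.27 (SE 0.28, adjusted p = 0.00504). RT1-Da fell by 1.4 (SE 0.33, adjusted p = 0.00985) and RT1-Bb fell by 1.14 (SE 0.32, adjusted p = 0.0273); these rat MHC genes belong to a family with similar sequences, and the RT1-Bb call was lost without rosiglitazone array 1 or 2 or obese array 1, 3, 4 or 5 (adjusted p = 0.0548 to 0.077). In all 3 genes array 2 was the lowest of its group in both groups. The count of falls was 5 without obese array 2 and 2 without rosiglitazone array 2. The macrophage list, 14 measured genes, had no member past the threshold (median -0.35), with mean levels of 4.3 to 5.83 on rosiglitazone arrays and 4.59 to 6.02 on obese arrays. Of 36 cytokines and chemokines 2 rose, Ccl2 and the lymphatic Ccl21, and 2 fell, Ccl6 and Ccl22, which is 5.56% each way beside 7.19% of all genes that rose and 2.67% that fell.

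Ccl6, a chemokine of rodents, stood at 7.5, 6.88, 7.63, 6.73 and 7.58 against 9.48, 7.72, 9.39, 9.25 and 9.2, without overlap, and fell by 1.74 (SE 0.33, adjusted p = 0.00158), or 3.35-fold. Ccl2, the monocyte chemoattractant, stood at 5.77, 4.31, 8.06, 7.46 and 7.36 against 4.6, 4.13, 4.57, 4.65 and 4.44. It rose by 2.12 (SE 0.53, adjusted p = 0.0129), with rosiglitazone array 2 inside the obese range and arrays 3, 4 and 5 far above it. Ccl22 differed by -0.6 (adjusted p = 0.0353) at levels under the median gene, a call lost without rosiglitazone array 1, 2 or 3 or obese array 1, 4 or 5 (adjusted p = 0.0677 to 0.086). Cfp, properdin, the complement regulator that stabilises the alternative pathway, fell by 1.19 (SE 0.28, adjusted p = 0.00952), with obese array 2 inside the rosiglitazone range.

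Of 38 measured adipokines and proteins secreted by adipocytes 2 rose (5.26%) and 4 fell (10.5%), beside 7.19% and 2.67% of all genes. The falls of C1qtnf9, Nnat and Sparcl1 stood beside adiponectin, which did not pass. The fourth fall was Serpina12, vaspin, a serpin named for visceral fat, at 2.79, 2.83, 2.51, 2.64 and 2.26 against 3.28, 3.72, 3.69, 3.24 and 4.2. The groups did not overlap, and it fell by 1.02 (SE 0.2, adjusted p = 0.00185) from levels already near the median gene. C1qtnf3, another adiponectin relative, rose by 0.83 (SE 0.21, adjusted p = 0.0156), and the stress hormone Gdf15 rose by 0.75 (SE 0.22, adjusted p = 0.0352), both at levels near or under the median gene. With only the rosiglitazone and obese arrays fitted, the adjusted p of C1qtnf3 was 0.0616. The Gdf15 call was lost without rosiglitazone array 1, 2, 3 or 4 or obese array 1, 2, 3 or 5 (adjusted p = 0.051 to 0.103), and the count of risen genes of the list was 1 without rosiglitazone array 1, 3 or 4 or obese array 1, 2, 3 or 5, 4 without rosiglitazone array 2.

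The 5 rosiglitazone arrays were not alike. Rosiglitazone array 2 had the highest score of the 5 in 11 of the 12 mitochondrial lists and the highest level in 240 of their 287 genes. Its beta-oxidation score was 1.88, against 0.64 to 1.1 on the others and -0.62 to -0.23 on obese arrays. Its scores for collagens (-1.02) and macrophages (-1.21) were the lowest of the 10 arrays. In all 12 mitochondrial lists the other 4 rosiglitazone arrays still lay above every obese array. The obese arrays had their own low array: array 2 had the lowest score of the 5 in 9 of the 12. Whether tissue composition at sampling differed between these animals was not tested.

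**Figure D5:**
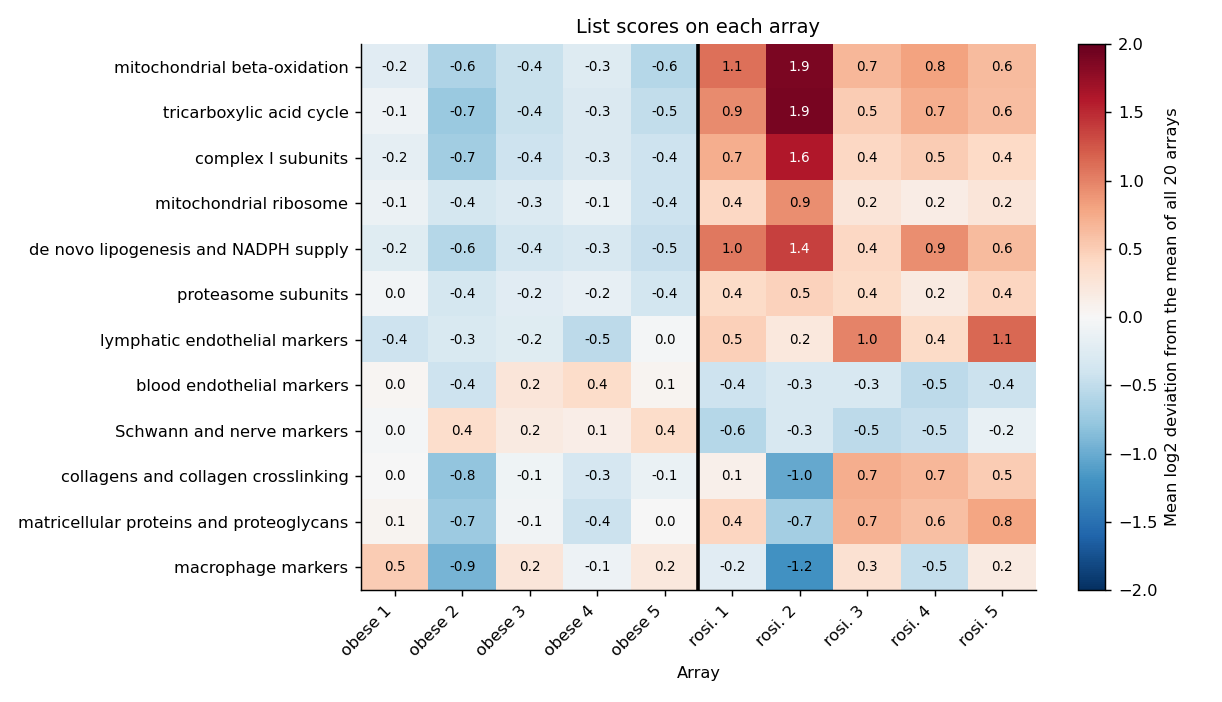
Scores of 12 gene lists on the 5 obese and 5 rosiglitazone arrays, as the mean log2 deviation of a list's genes from their means over all 20 arrays, printed in each cell and coloured from blue (low) to red (high). Rosiglitazone array 2 is highest for mitochondrial lists and lowest for collagens and macrophage markers, while blood endothelial scores are below 0 on all 5 rosiglitazone arrays and on obese array 2, and lymphatic scores are above 0 on all 5 rosiglitazone arrays and below 0 on all 5 obese arrays.

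The rosiglitazone arrays were also tested directly against the resveratrol arrays, the other treated group. Of 14557 genes, 1004 passed (6.9%), 595 higher (4.09%) and 409 lower (2.81%) in the rosiglitazone group. The lower genes numbered 239 without rosiglitazone array 4 and 259 without resveratrol array 3 or 5. In all, 876 passed without resveratrol array 1, 492 higher and 384 lower, and 870 without the 3 arrays that stood apart, 483 higher and 387 lower. This test shares the rosiglitazone arrays with the one above, so its values stand beside the others and are not independent of them. By list, 17 of 18 beta-oxidation genes, 22 of 28 complex I subunits, 12 of 14 tricarboxylic acid cycle genes, 22 of 62 mitochondrial ribosomal proteins and 9 of 26 proteasome subunits were higher than in the resveratrol group. Without resveratrol array 1 these counts were, in the same order, 18, 20, 12, 21 and 4. Beside its skeletal muscle score, that array scored 5.97 for milk protein genes against -0.53 to 0.24 on the others. It scored -1.59 for adipocyte markers against 0.017 to 0.22, and -0.92 for beta-oxidation genes against -0.4 to -0.16. The part of these transcripts in the comparison was not tested beyond leaving the array out.

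Single genes bore the same comparison. Ucp1 was higher by 5.07 (SE 0.75, adjusted p = 0.000273), with resveratrol levels of 1.17, 1.09, 1.21, 0.95 and 1.31. Alb was higher by 5.07 (SE 0.69, adjusted p = 0.000154) and Me1 by 2.21 (SE 0.31, adjusted p = 0.000172). C1qtnf9 differed by -2.9 (SE 0.33, adjusted p = 2.06e-05), with resveratrol array 1 at 3.47 and the other 4 at 5.58 to 5.95. Ace differed by -2.5 (SE 0.3, adjusted p = 4.63e-05), Cldn5 by -1.71 (SE 0.26, adjusted p = 0.000348) and Ccl21 by 1.97 (SE 0.27, adjusted p = 0.000154). Genes that did not pass against resveratrol included Scd2, at 0.45 (SE 0.29, adjusted p = 0.444), Pgk1, at 0.53 (SE 0.23, adjusted p = 0.204), and Spetex2g, at -0.64 (SE 0.42, adjusted p = 0.456). Among 14 macrophage markers 3 were lower in the rosiglitazone group than in the resveratrol group, and among 8 lymphatic markers 3 were higher; without resveratrol array 1 these counts were 1 and 3. Without that array the differences were 5.08 for Ucp1, 5.3 for Alb, 2.07 for Me1, -3.36 for C1qtnf9, -2.25 for Ace, -1.81 for Cldn5 and 2.09 for Ccl21, and all 7 passed. Scd2 then stood at 0.75 (adjusted p = 0.0821).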

How the data were processed

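Total RNA of whole retroperitoneal tissue was hybridised to Rat Gene 2.1 ST arrays of Affymetrix, per the labels' protocols, and each array is labelled a biological replicate. Per the submitters' processing notes RMA was used, with no version named. The deposited values of the authors were taken as log2 levels from their range, and used without further scaling. Of 36685 features, 15653 were listed in the platform annotation, 14824 with exactly 1 symbol and 829 with several; the 234 genes with several features were represented by the feature with the highest mean level. Group means of all 20 arrays were fitted with limma 3.58.1 in R 4.3.3 (16 residual and 5.41 prior degrees of freedom), with Benjamini-Hochberg adjustment over 14557 genes and a threshold of 0.05. The number of arrays limits the precision.

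Named genes were the 12 largest called, non-overlapping changes in each direction (predicted, receptor and multigene placeholder symbols left out), up to 4 called members of each pathway list by smallest p with the largest opposite call, and a fixed set of adipocyte genes. The named cell type markers and Cpt1a, Ehhadh, Gdf15, Lum, Ndufb4, Pdk4, Sdhd, Slc36a2, Sparc and Timm8b stand outside this rule and were chosen after their values were seen, as were the members listed only by name. Members and lists were chosen with earlier results of these data known. Of 1929 list entries 1466 matched a tested gene. No fold is given for genes with a group mean below 3.02, the median gene level, a choice made with values seen. Alternatives were other scalings, filters, fits and arrays left out. Promoters are from RefSeq (GRCr8), with 11723 of the tested genes matched.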

Additional observations from a re-analysis of the deposited data

Results flagged for a closer look

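Each of 137 genes named here was taken in the rosiglitazone and in the obese group, giving 274 groups of 5 arrays. In these, 31 times the highest or lowest array lay apart from the other 4 by more than Dixon's criterion for 5 values allows. Chance gives about 1 in 20 for independent groups. The 274 groups share the same arrays and many genes moved together, so they are not independent and no excess was tested. Of the 31, 14 were rosiglitazone array 2 and 8 were obese array 2. Values below are log2 levels, with the range of the other 4 arrays of the group after each.

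Rosiglitazone array 2 was the highest in its group for Atp5f1d at 9.43 (8.46 to 8.62), Lrpprc at 7.27 (5.56 to 6.01), Mrpl4 at 6.45 (5.27 to 5.37), Ndufa11 at 7.24 (6.49 to 6.70) and Ndufs7 at 8.14 (6.85 to 7.16). It was likewise highest for Plin1 at 10.49 (10.06 to 10.12), Suclg1 at 8.76 (7.37 to 7.75), Tfam at 5.33 (4.65 to 4.84) and Ucp1 at 10.52 (4.73 to 5.83). These are genes of the respiratory chain, mitochondrial translation, the tricarboxylic acid cycle and thermogenesis, besides the droplet coat gene Plin1. The same array was the lowest for Cidec at 9.29 (9.93 to 10.05), Col8a1 at 2.70 (5.58 to 6.08), P4ha3 at 3.03 (6.07 to 7.30), S100b at 6.94 (7.71 to 8.0) and Sparc at 9.67 (10.43 to 10.56). Those 5 include 3 matrix genes.

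Obese array 2 was the lowest in its group for immune genes and Pex3, with Ccl6 at 7.72 (9.20 to 9.48), Cd74 at 9.38 (10.21 to 10.53), Cfp at 4.42 (5.68 to 6.00), Pex3 at 4.49 (5.29 to 5.55) and RT1-Da at 7.04 (8.30 to 8.61). It was the highest for Cpt1a at 6.23 (4.86 to 5.22), Decr2 at 4.09 (3.39 to 3.54) and Ppara at 5.24 (3.42 to 3.85).

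Obese array 5 was the lowest for Acot13 at 3.13 (3.57 to 3.69). Rosiglitazone array 5 was the highest for Prg4 at 8.77 (7.43 to 7.71). Rosiglitazone array 5 was the lowest for Gdf15 at 2.64 (3.11 to 3.27). Obese array 1 was the highest for P4ha3 at 4.23 (2.69 to 3.04), Prdx3 at 6.70 (6.19 to 6.33), Prg4 at 6.29 (4.0 to 4.66) and Thbs4 at 3.62 (2.74 to 2.97). Rosiglitazone array 4 was the lowest for Prkar2a at 6.22 (6.57 to 6.68). Obese array 4 was the highest for Ucp1 at 2.25 (1.22 to 1.45).

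Features without exactly 1 symbol were not part of the comparison. Of 21861 such features 1031 passed the same threshold when all features were fitted together (4.72%), 396 higher and 635 lower in the rosiglitazone group. Of 14824 features with 1 symbol, 1123 passed in that fit (7.58%), 846 higher and 277 lower. What the features without a symbol measure was not tested.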

How the results depend on the processing

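Of 123 named genes past the threshold, 103 stayed past it under every alternative that tested them, up to 19 each, and 0 changed sign. The alternative with dim genes left out did not test genes whose mean level lay under that of the median gene. After quantile normalisation again Aup1, Ccl22, Dgat1, Gpd1l1, Prkar2a and Tfam lost their calls (adjusted p = 0.0545 to 0.213). Fabp4 and Pck1, which did not pass, differed by -0.085 to 0.0086 and by -0.69 to 0.10 with 1 array left out, and changed sign without rosiglitazone array 4 and 3 respectively. Counts of genes higher in rosiglitazone than in obese stayed within 1.5 times of 1047 under every alternative run. Counts of lower genes were 645 after quantile normalisation again and 250 to 408 with 1 array left out, the least without rosiglitazone array 1. Against resveratrol they were 239 to 400, the least without rosiglitazone array 4, and 259 without resveratrol array 3 or 5. Total counts with 1 array left out were 1007 to 1482 against obese and 685 to 965 against resveratrol; the causes were not tested. Equal replicate numbers did not pair the samples: their deviations correlated at -0.125 to 0.124 between rosiglitazone and obese arrays. With the number as a block, 1345 genes passed against obese, 960 higher and 385 lower, and 999 against resveratrol, 549 higher and 450 lower. Leaving out the 3 arrays that stood apart was chosen after seeing the data. The 5 arrays a group and dim levels limit precision.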
